A study of Homo sapiens with 6 samples.

Results

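NFYA, NFYB and NFYC encode the subunits of NF-Y, the trimeric transcription factor that binds the CCAAT box of many promoters. These 3 genes were taken by their symbols from a table of 2723 genes, in which the use of a proximal and a distal polyadenylation site (pPAS and dPAS) was compared between HL-60 cells that overexpressed CFIm25 (OE-CFIm25) and control cells (OE-control). All 3 were measured. The set was chosen by the measured value of NFYC in that table, so the values of its members are a description and carry no test.

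HL-60 is a human promyelocytic leukemia line, which the labels describe as a promyeloblast of blood. In OE-CFIm25, a lentivirus carried the CFIm25 coding sequence under an EF-1a promoter, with the puromycin marker made from the same mRNA through an IRES. The control cells were given the same vector lacking CFIm25. Both groups were selected with puromycin and then received 3 nM PMA, a phorbol ester that drives the cells toward macrophages, for 6 h, and each had 3 samples. The labels number these samples without saying whether they came from separate cultures, while the methods state for experiments in general that independent sets were run. QuantSeq FWD libraries, which are primed from the poly(A) tail, gave between 3525582 and 3845872 reads at known PASs of genes per library (median 3603012 over 6 libraries that the library statistics do not assign to a condition).

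NFYB and NFYC pair through histone folds like those of core histones, and NFYA joins this dimer and makes the sequence-specific contact with the CCAAT box. NF-Y is known for the promoters of cell cycle genes, of which many carry CCAAT boxes, and for stress and sterol genes. Loss of any subunit is known to abolish DNA binding by the trimer. CFIm25 (NUDT21) is the RNA-binding subunit of cleavage factor Im, which recognises UGUA upstream of a PAS, while the poly(A) signal, AAUAAA or its commonest variant AUUAAA, is bound by the cleavage and polyadenylation specificity factor. Where both PASs follow the stop codon in a gene's last exon, the isoforms share the coding sequence and differ in the 3’ UTR, which can hold sites for miRNAs and for RNA-binding proteins.

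The sequence before 5 of the 6 PASs is shown because it states which ends were compared. The following stretches of 30 nt end at the PAS itself, on hg19 (GRCh37), each written 5′ to 3′ on the strand of the gene (plus for NFYA and NFYC, minus for NFYB) in DNA letters, with poly(A) signals in capitals.
NFYA dPAS, chr6:41070108-41070137: ttatttcaaAATAAAgtattctcttctaac
NFYB pPAS, chr12:104513102-104513131: cccttttAATAAAatataagggtagagttc
NFYB dPAS, chr12:104512430-104512459: atctctgcAATAAActaaacgtaaataatg
NFYC pPAS, chr1:41236749-41236778: caatgctatgaaATTAAAatATTAAAtaac
NFYC dPAS, chr1:41237244-41237273: gcatgaaatgcAATAAAtctcattttagat

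All 5 had a poly(A) signal in the 40 nt before them. Of these 5, the 3 of NFYA and NFYB had AAUAAA. NFYC had AUUAAA, present at 2 places, at its pPAS and AAUAAA at its dPAS. Across the table, a signal stood at 55.5% of pPASs and 80.3% of dPASs, and at both PASs in 45.5% of genes.

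The change in PAS use is given as RED (relative expression difference), which is log2 of dPAS reads over pPAS reads in OE-CFIm25, less the same quantity in OE-control. A positive RED means relatively more of the long isoform after CFIm25 overexpression, and a gene was called at a RED beyond log2(1.2), or 0.26, in either direction with an adjusted p under 0.05. The 3’ UTR of NFYC was lengthened, while NFYA and NFYB lay near 0. In the authors' deposited table, NFYC had a RED of 1.39, so that dPAS over pPAS use was 2.62-fold higher after CFIm25 overexpression, with an adjusted p of 0.0207. NFYA, the subunit that reads the CCAAT sequence, had a RED of 0.03 (1.02-fold) and an adjusted p of 0.978. NFYB, the histone-fold partner of NFYC, had a RED of −0.03 (0.979-fold) and an adjusted p of 0.998. So 1 of the 3 subunit genes was called, and it was lengthened. In the whole table, 10 of 2723 genes were called, which is 0.367%, and 2 were lengthened, which is 0.0734%. Nothing is read from the members' count against these shares, because NFYC was selected on this contrast. Since only 1 RED and 1 adjusted p stand in the table for a gene, with none for single samples, the spread of these ratios between the 3 samples of a group cannot be given.

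The RED of NFYC exceeded that of NFYA by 1.36 and that of NFYB by 1.42, and NFYA and NFYB differed by 0.06. With no error per gene, these differences between genes were not tested. NFYC ranked 5 from the top of the table by RED, and 99.8% of genes lay below it. Just above it stood KIF3C, a kinesin motor, and TM2D2, both with a RED of 1.44 and with adjusted p of 0.368 and 0.474, and just below it DBR1, the lariat debranching enzyme (RED 1.37, adjusted p 0.655), and MMP19, a matrix metalloproteinase (RED 1.35, adjusted p 0.795). NFYC was the only called gene among the 11 whose RED was at least 1.39 in size, 5 of them positive and 6 negative, and the lowest adjusted p of the others was 0.109. A RED of this size was therefore not enough for a call in most of these genes. In the adjusted p itself, 5 genes lay below NFYC.

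NFYA and NFYB sat in the middle of the table. The median RED of all genes was −0.03 (quartiles −0.29 and 0.22) and their median adjusted p was 0.908. Of all genes, 42.3% had a higher RED than NFYA and 49.3% a higher one than NFYB. Only 228 genes (8.37%) had a RED of at most 0.03 in size, so both genes were among those with the least shift. An adjusted p near 1 does not show that their PAS use was equal in the groups, and the table gives no interval for it.

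**Figure D1:**
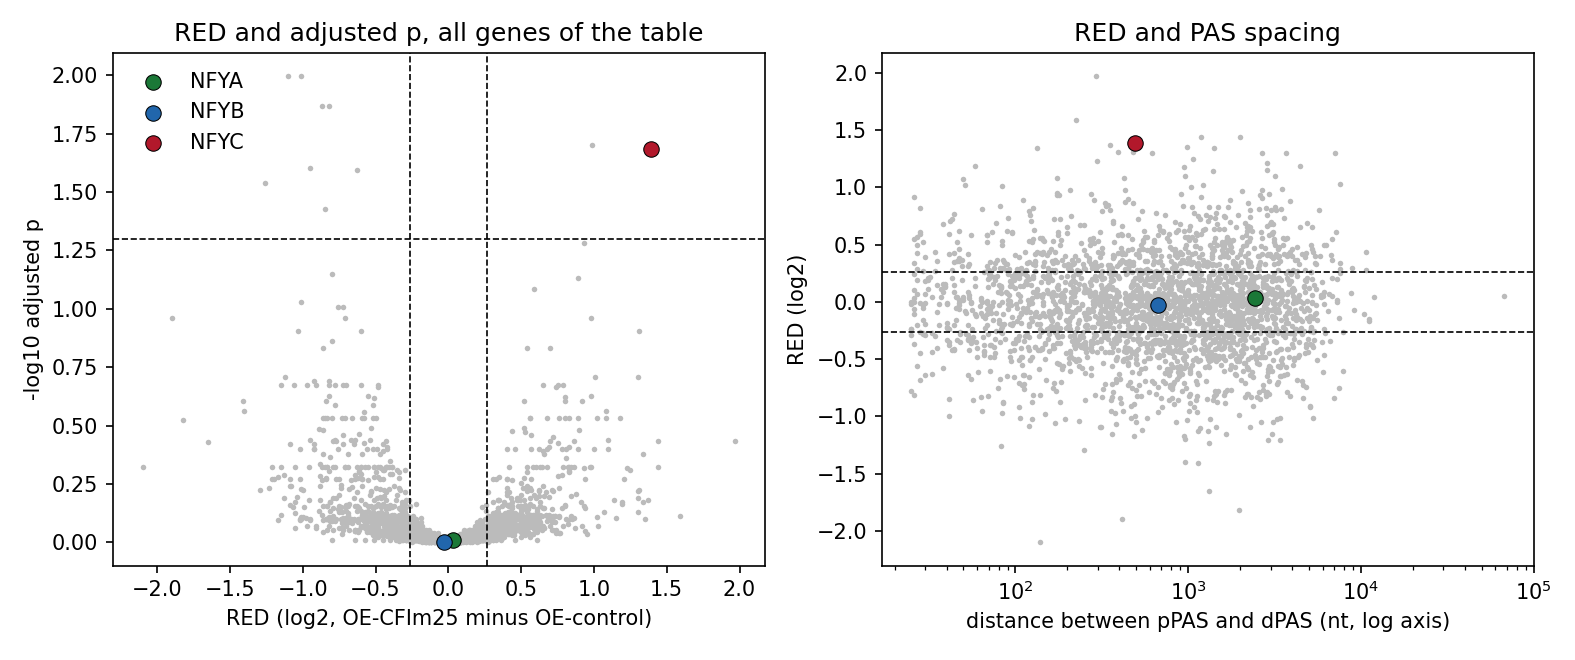
The left panel plots RED (log2) against −log10 of the adjusted p for the 2723 genes in grey with NFYA, NFYB and NFYC in colour, and the right panel plots RED against the distance in nt between the PASs on a log axis; dashed lines mark the thresholds. NFYC stands at a RED of 1.39 above the line for the adjusted p, and NFYA and NFYB stand near 0 in both panels.

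The 3 genes differed in how much 3’ UTR lay between the compared PASs. In NFYC, the pPAS at position 41236778 and the dPAS at 41237273 of chromosome 1 were 495 nt apart. In NFYB, at 104513102 and 104512430 of chromosome 12, they were 672 nt apart. In NFYA, at 41067706 and 41070137 of chromosome 6, they were 2431 nt apart. The median of all genes was 760 nt (quartiles 256 and 1756), and 84% of genes had a shorter spacing than NFYA, against 47.2% for NFYB and 38.7% for NFYC. Among the 134 other genes with a spacing within 10% of that of NFYC, RED ran from −1.17 to 1.31 with a median of −0.04. NFYC lay above this range, but it was chosen for its RED, so nothing is read from that. The 154 genes spaced like NFYB had a median RED of −0.06 and the 129 spaced like NFYA one of 0.00.

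All 6 PASs lay past the stop codon in the final exon of the reference transcript, in GENCODE release 44 mapped to GRCh37. In NFYC (exon 10, positions 41236381 to 41237275), the pPAS fell 278 nt past the stop codon and the dPAS 773 nt, so that the long isoform had 2.78 times the 3’ UTR of the short one. In NFYB (exon 8, 104510864 to 104513547), they fell at 413 and 1085 nt, a ratio of 2.63. In NFYA (exon 10, 41065096 to 41070142), they fell at 2557 and 4988 nt, a ratio of 1.95. The short isoform of NFYA thus had a 3’ UTR 9.2 times as long as that of the short isoform of NFYC. Since each stop codon lay in that exon before the pPAS, both isoforms of each gene held the same coding end, and the reference coding sequences run to 347 codons in NFYA, 207 in NFYB and 335 in NFYC.

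Annotated ends of transcripts were then set against the PASs. Of the 18 protein-coding transcripts of NFYC, 4 ended within 24 nt of the pPAS and 5 within 24 nt of the dPAS, with 1 ending exactly at each. In NFYA, 1 of 2 protein-coding transcripts ended near the dPAS (5 nt beyond it) and none near the pPAS. In NFYB, none of 3 ended near either PAS. The nearest end to the NFYB pPAS was 31 nt before it, and the reference transcript ran 1566 nt past the dPAS. The values for NFYB therefore compare a pair of PASs inside the annotated 3’ UTR.

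**Figure D2:**
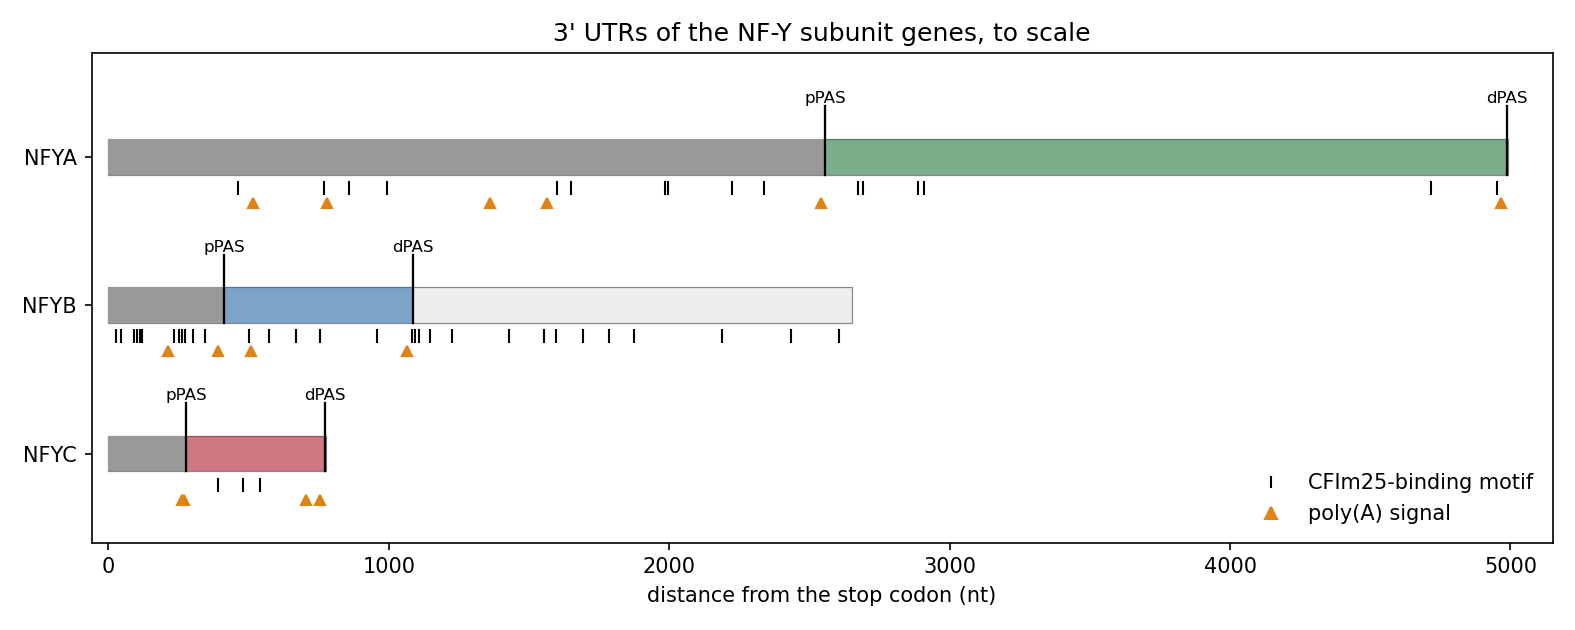
The 3’ UTR of each gene is drawn to scale in nt from the stop codon, with the short isoform in dark grey, the stretch between pPAS and dPAS in colour and annotated sequence past the dPAS in light grey; ticks mark UGUA and triangles mark AAUAAA or AUUAAA. NFYC has no UGUA up to its pPAS at 278 nt and 3 in the stretch that only the long isoform holds. Stretches within 10% of that length, its own included, held a mean of 3.52 UGUA (135 genes).

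UGUA, the motif that CFIm25 binds, was next counted, because the choice of members did not use it. Counts cover a window that ends at the PAS. In the 100 nt before the PAS, NFYC had no UGUA at the pPAS and none at the dPAS, and the same was found over 200 nt. NFYA had none at its pPAS and 1 at its dPAS, 35 nt before the PAS. NFYB had 1 at its pPAS, 69 nt before the PAS, and none at its dPAS. Over 200 nt NFYB had 6 at the pPAS and 1 at the dPAS. All genes held 0.743 ± 0.939 UGUA (SD, n = 2723 genes) at the pPAS and 0.943 ± 0.999 at the dPAS in 100 nt. The dPAS had the higher count in 36.6% of genes, the pPAS in 25.8%, and the counts were equal in 37.6%. Within 200 nt, NFYC, the lengthened gene, had no UGUA before either PAS. NFYB, with the most at its pPAS, had a RED of −0.03. Outside that window, NFYC had 3 UGUA before its dPAS, the nearest 234 nt away. A link between UGUA and RED was not tested.

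Genes with the same arrangement of UGUA had median RED values near 0. No UGUA in the 200 nt before either PAS was found in 236 genes (8.67%), whose median RED was −0.01 (quartiles −0.33 and 0.20), with 1 gene lengthened, NFYC, and 0 shortened. At least 6 UGUA in the 200 nt before the pPAS, as in NFYB, was found in 27 genes (0.992%), with a median RED of −0.03 and 0 called. Both medians lay within 0.02 of the median of all genes. Since only 10 of 2723 genes were called, such class medians say little about an arrangement, and no link was tested. The same holds for the class medians of poly(A) signals and of G and U given below.

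**Figure D3:**
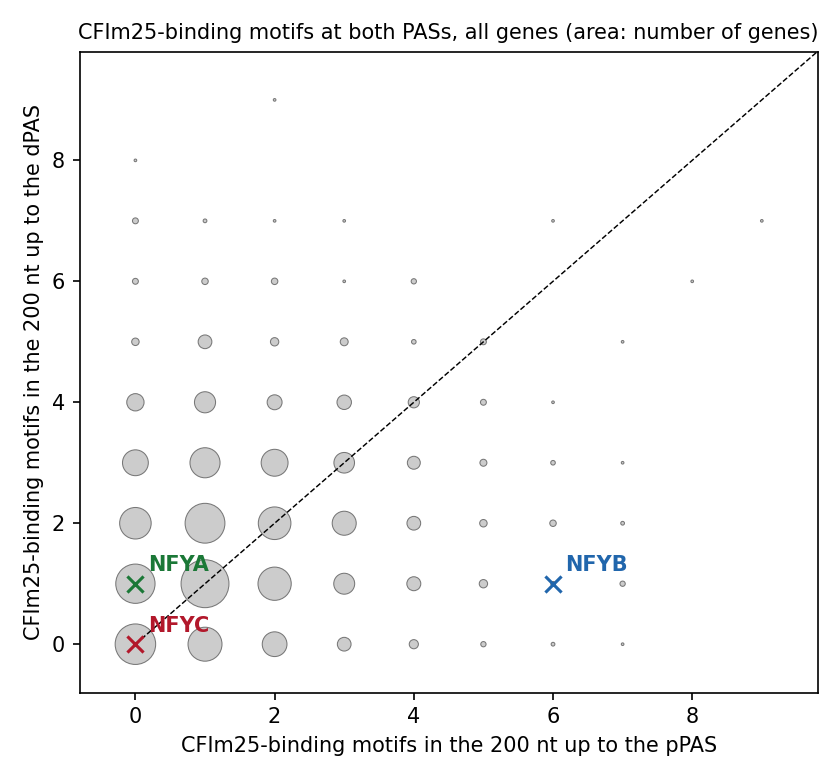
Each circle gives the number of genes, by its area, with a given count of UGUA in the 200 nt up to the pPAS (horizontal axis) and up to the dPAS (vertical axis) for 2723 genes, with a dashed line of equal counts. NFYC lies at 0 and 0, NFYA at 0 and 1, and NFYB at 6 and 1.

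The UGUA sites of NFYC all lay between its PASs, 114, 201 and 261 nt past the pPAS, and the last of them was 234 nt before the dPAS. They are printed with the site nearest before a PAS of NFYA and of NFYB, because UGUA is what cleavage factor Im recognises, with UGUA in capitals as TGTA on hg19.
NFYC, 114 nt past the pPAS, chr1:41236884-41236903: cccaggggTGTAcggtattt
NFYC, 201 nt past the pPAS, chr1:41236971-41236990: tgaatgtgTGTAgctgcttt
NFYC, 261 nt past the pPAS, chr1:41237031-41237050: gagctctgTGTAtttgcatc
NFYA, 35 nt before the dPAS, chr6:41070094-41070113: tgcacattTGTAttttattt
NFYB, 69 nt before the pPAS, chr12:104513160-104513179: gttactttTGTAattcaagt

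In the 3’ UTR up to the dPAS, UGUA was densest in the short isoform of NFYB and was not found in that of NFYC. In NFYB, 13 more lay past the dPAS in the annotated 3’ UTR and 1 spanned it. NFYB held 12 UGUA in the 413 nt up to its pPAS, or 2.91 per 100 nt, and 5 between its PASs, or 0.744 per 100 nt. NFYA held 10 up to its pPAS (0.391 per 100 nt) and 6 between its PASs (0.247 per 100 nt). NFYC held none up to its pPAS and 3 between its PASs (0.606 per 100 nt). Stretches of like length (within 10% of a member's, its own included) were read beside these. They held a mean of 3.52 UGUA for NFYC (135 genes), 4.31 for NFYB (155 genes) and 13.9 for NFYA (130 genes). UGUA occurred in 96.3%, 98.1% and 100% of them. Over all genes, the median density between the PASs was 0.571 per 100 nt. It was lower than in NFYC in 53.7% of genes, than in NFYB in 67.9% and than in NFYA in 20.2%. In the 100 nt after the PAS, NFYC again had none at either PAS, NFYA had none at the pPAS and 1 at the dPAS, and NFYB had 1 and 3. Binding of CFIm25 was not measured in these data, so a match says only that the letters are there.

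The poly(A) signal at the pPAS differed between NFYC and NFYB. In NFYC, AUUAAA began 17 nt and again 9 nt before the pPAS, and AAUAAA began 18 nt before the dPAS. In NFYB, AAUAAA began 22 nt before the pPAS and 21 nt before the dPAS. In NFYA, it began 20 nt before the dPAS. Across genes, the signal nearest the PAS began at a median of 21 nt before pPASs (quartiles 18 and 23, 1511 genes), and it lay at most 9 nt away in 25 of them (1.65%). AUUAAA nearest the pPAS with AAUAAA nearest the dPAS, as in NFYC, was found in 281 genes (10.3%) with a median RED of −0.03, of which 1 was lengthened and 1 shortened. AAUAAA nearest both was found in 693 genes (25.4%) with a median RED of −0.01, of which 0 were lengthened and 2 shortened. The arrangement of signals in NFYC was thus shared with 280 genes, of which 1 was called.

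Oligo(dT) can prime inside an A-rich stretch of RNA, so the genomic sequence after each PAS was checked. None of the 6 PASs was A-rich, taken as 12 or more A, or 6 A in a row, in the next 20 nt, whereas 26.7% of pPASs and 10.2% of dPASs in the table were. NFYC had 4 A in the 20 nt after each PAS, NFYB had 5 and 7, and NFYA had 9 and 7. G and U, which are frequent in downstream elements, made up 72.5% of the 40 nt after the dPAS of NFYC and 65% after its pPAS. The dPAS value was above that of 93.6% of genes. NFYB had 65% and 67.5%, and NFYA 45% at both, against means of 49 ± 15.9% (SD) at pPASs and 55.4 ± 12.5% at dPASs of all genes. The 174 genes with at least 72.5% after the dPAS had a median RED of −0.03.

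The stretch that only the long isoform holds was then read for elements that act in 3’ UTRs. Its GC content was 42.6% in NFYC, 32.3% in NFYB and 48.5% in NFYA, and 38.5 ± 9.29% (SD) over all genes. AUUUA, the core of AU-rich elements, occurred 3 times in NFYC (3, 298 and 311 nt past the pPAS), 2 times in NFYB and 4 times in NFYA. AUUUA was found in that stretch of 68.7% of all genes. At like length, it was found in 79.3% of genes for NFYC, 74.8% for NFYB and 97.7% for NFYA. The longer UUAUUUAUU element, which contains AUUUA and was held there by 5.88% of genes, was in none of the 3 stretches. Nor was the Pumilio motif UGUANAUA, which contains UGUA and was held there by 21.3% of genes. At the lengths of NFYC, NFYB and NFYA, the Pumilio motif was held by 14.8%, 14.8% and 34.6% of genes. For UUAUUUAUU these shares were 2.96%, 7.74% and 9.23%. Matches to the seeds of 8 miRNA families (miR-30, let-7, miR-17, miR-223, miR-155, miR-21, miR-181 and miR-29) were found in none of the 3 short isoforms. Each long isoform held at least 1.

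NFYC gained 1 match, to miR-181, 193 nt past its pPAS, and NFYB gained 1, to miR-30, 228 nt past its pPAS. NFYA gained 1 to miR-155 and 1 to miR-29, at 2050 and 2177 nt past its pPAS. The NFYC and NFYB sites are printed after the mature miRNAs they match, since only the long isoforms carry them. The miRNAs come from RefSeq (GRCh38.p14) with the seed, bases 2 to 8, in capitals, and the sites from hg19 with the complement of the seed in capitals.
hsa-miR-181a-5p: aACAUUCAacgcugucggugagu
NFYC, chr1:41236963-41236985: gaattaggTGAATGTgtgtagct
hsa-miR-30e-5p: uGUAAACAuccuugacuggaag
NFYB, chr12:104512860-104512882: attaacagTGTTTACactgttca

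Stretches of like length held a miR-181 match in 10.4% of 135 genes (NFYC and those spaced like it) and a miR-30 match in 8.39% of 155 genes (for NFYB). For NFYA, 16.2% of 130 genes held a miR-155 match and 20% a miR-29 match. The share of stretches with a match to any of the 8 families was not counted. The miR-181 match of NFYC lies just before its UGUA at 201 nt, and the printed stretches overlap. MIR30E (chr1:41220027-41220118) and MIR30C1 (chr1:41222956-41223044) lie in intron 5 of NFYC itself, so the gene whose 3’ UTR was lengthened also hosts miRNAs of the family that matches the long NFYB isoform. Levels of miRNAs were not measured in these libraries, and no match was tested for an effect.

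Genes around NF-Y were then read as lists. None had a called gene, beside 0.367% of all genes called, and the lists had 10 or fewer measured members each. Of 25 listed partner factors and coactivators of NF-Y, 10 were measured and none passed the test, and their median RED was 0.16 (range −1.01 to 1.31) beside −0.03 for all genes. IRF1, an interferon-regulated transcription factor, had a RED of 1.31 and an adjusted p of 0.124. ATF6, the stress sensor of the endoplasmic reticulum that acts with NF-Y at stress promoters, had a RED of −1.01 and an adjusted p of 0.59. Of 23 listed histone-fold proteins outside the nucleosome, 3 were measured, with a median RED of 0.11, among them SUPT7L, a subunit of a SAGA-type coactivator complex (RED −0.40, adjusted p 0.884), and CHRAC1, a histone-fold subunit of a chromatin remodeller (RED 0.27, adjusted p 0.901). The highest RED among these 3 was the 0.27 of CHRAC1, against 1.39 in NFYC. Nothing is read from this gap, because NFYC was chosen for its RED and only 3 of the 23 were measured.

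Of 13 other factors named for CCAAT binding, 5 were measured with a median RED of 0.00. CEBPG, a C/EBP family member, had a RED of −0.40 (adjusted p 0.769) and NFIA, a nuclear factor I protein, one of −0.33 (adjusted p 0.804). Among targets, 2 of 27 cell cycle genes with NF-Y bound promoters were measured, AURKA, a mitotic kinase, at a RED of 0.30 (adjusted p 0.866) and CCNB2, a mitotic cyclin, at −0.01 (adjusted p 0.993). Of 19 stress and sterol genes, 6 were measured with a median RED of −0.16. FASN, the fatty acid synthase, had a RED of −0.51 and an adjusted p of 0.526. The table holds PAS use and not mRNA level, so no statement on the expression of these targets or of the subunits can be made from it.

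**Figure D4:**
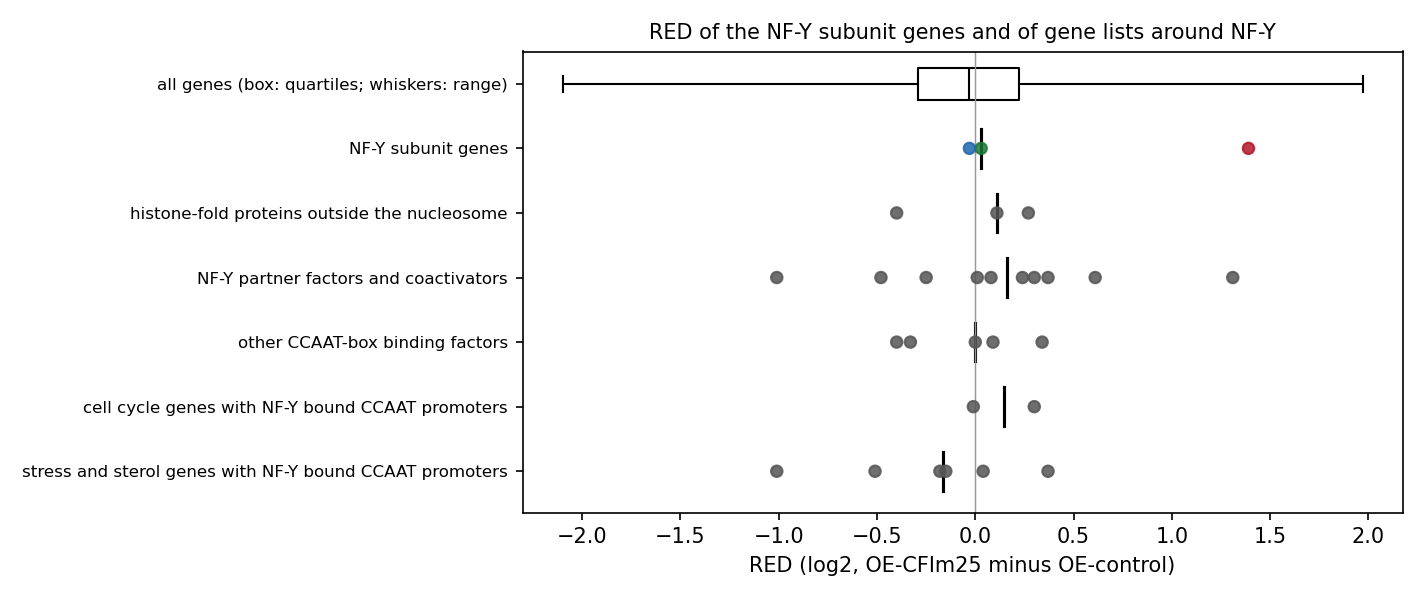
RED (log2, horizontal axis) of each measured gene of the lists, with a black bar at the list median and, in the top row, the quartiles and range of all 2723 genes; NFYA is green, NFYB blue and NFYC red. NFYC, at 1.39, is the only point of a called gene, and IRF1, at 1.31, is the nearest to it.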

How the data were processed

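The authors trimmed read 2 of the QuantSeq FWD libraries, aligned it to hg19 with STAR 2.7.7a, and used those reads whose ends matched a PolyA_DB PAS to within 24 nt. They deposited, per gene, RED on the log2 scale for the pair of most used PASs and an adjusted p-value for the comparison of the groups. The header of that p-value names a Fisher test, whereas the sheet title and the methods name DEXSeq, and no source used here gives the adjustment. The deposited read counts per library are numbered and match no sample, so they are given over all 6. These columns are the authors' comparison, used as a description, and no value per sample was used.

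A repeated row was removed (2724 rows, 2723 genes). Calls used RED beyond log2(1.2) and an adjusted p under 0.05. Sequence around each PAS came from GRCh37 and annotation from GENCODE release 44 mapped to it. UGUA was counted in 100 nt, poly(A) signals in 40 nt and A-rich sequence in 20 nt. Motifs were searched on the strand of the gene only. The letters of the 30 nt before the NFYA pPAS and the poly(A) signal there are not reported here, while UGUA counts before it are. The counting was tested on simulated data. The members and lists were chosen with earlier results of these data known. Named are the 3 members, every called gene of a list, the 2 genes of lowest adjusted p of each list, and the 2 next above and 2 next below NFYC in RED. Alternatives changed the thresholds, the windows, the signal variants and the minimum spacing. Python 3.11.15, numpy 2.4.6 and matplotlib 3.10.9 were used.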

Additional observations from a re-analysis of the deposited data

How the results depend on the processing

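The call of NFYC (RED 1.39) held with no RED threshold, with one of log2(1.5) and at an adjusted p under 0.10. None of these could lose it, because the first and last are looser than the main thresholds and 1.39 is past log2(1.5). At an adjusted p under 0.01 the call was lost, the adjusted p of NFYC being 0.0207. The number of genes called was 17 at an adjusted p under 0.10 and 0 under 0.01 (the lowest in the table was 0.0101, and unadjusted p-values were not used), and 10 under both other RED thresholds. NFYA and NFYB were not called under any of these. The UGUA count at the dPAS minus that at the pPAS of NFYB was −1 in 100 nt, 0 in 50 nt and −5 in 200 nt, while those of NFYA and NFYC did not move. In all, 38 values were unchanged in call or size, 4 moved and 1 lost its call. The 38 include calls that a setting could not change, so their number is no measure of robustness.

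No paired analysis was possible because single samples have no values in the deposited table, which also precluded leaving out samples. The number of reads behind each RED is unknown.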
